A study of Mus musculus with 12 samples.

Results

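Glutathione is a tripeptide of glutamate, cysteine and glycine, and the 9 genes described here make it, bring in its cysteine, or use and recycle it. They were chosen by gene symbol as the genes of glutathione synthesis and cystine import: Gclc, Gclm, Gss, Slc7a11, Cbs, Cth, Ggt1, Gsr and Gpx1. All 9 were among the 55401 genes of the table. Of the 9, 8 passed the filter on low counts and were among the 17585 genes tested, and Ggt1 did not pass.

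RNA was sequenced from whole livers of male mice aged 7 to 10 weeks, in 12 libraries from 4 groups of 3. FBXL5ΔDC mice (Cd11c-Cre/Fbxl5F/F) were taken 6 h after acetaminophen or untreated (0 h), and so were control mice (FBXL5F/F). Mice of both genotypes carried loxP-flanked (floxed) Fbxl5 alleles. In FBXL5ΔDC mice, Cre recombinase under the Cd11c (Itgax) promoter deletes Fbxl5, which encodes an iron-sensing subunit of a ubiquitin ligase, mainly in dendritic cells. Acetaminophen was injected after a fast of 16 h at 300 or 500 mg/kg. Which dose these mice received, and whether the 0 h mice were fasted, is not given in the labels, so a response from 0 h to 6 h cannot be told apart from fasting and refeeding. The labels name replicates only by group and number, and p-values measure only the spread between these samples.

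The first and rate-limiting step of glutathione synthesis joins glutamate to cysteine and is done by glutamate-cysteine ligase, an enzyme of a catalytic subunit (Gclc) and a modifier subunit (Gclm), and glutathione synthetase (Gss) then adds glycine. Cysteine comes either from methionine, through the transsulfuration enzymes Cbs and Cth, or from outside the cell as cystine through the exchanger xCT (Slc7a11). In the liver, glutathione binds the reactive metabolite of acetaminophen, and an overdose exhausts it. Several of these genes are known targets of the transcription factors NRF2, which acts at antioxidant response elements, and ATF4, which acts at amino acid response elements.

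The region before a gene start shows where such elements could lie. RefSeq start-site windows of build GRCm38.p6, from 250 bases before to 50 bases after the start, were at hand for 6 of the 9 genes, but not for Gclc, Gsr and Cth. Both strands were searched for the antioxidant response element core TGACNNNGC and the amino acid response element core TGATGNAA. The windows of 3 genes called higher after acetaminophen are printed 5′ to 3′ on the strand of the gene, with matches in capitals. Slc7a11 and Gss were called in both genotypes and Gclm in control livers alone. The windows differ in what they hold: Slc7a11 has the amino acid core, Gclm the antioxidant core and Gss neither.
Slc7a11, chr3:50443564-50443863, minus strand: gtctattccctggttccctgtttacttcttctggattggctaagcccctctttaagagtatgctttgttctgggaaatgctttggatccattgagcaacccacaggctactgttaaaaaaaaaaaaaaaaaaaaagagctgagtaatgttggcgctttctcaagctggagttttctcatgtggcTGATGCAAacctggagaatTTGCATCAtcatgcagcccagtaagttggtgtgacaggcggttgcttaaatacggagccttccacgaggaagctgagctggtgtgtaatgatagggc
Gclm, chr3:122245307-122245606, plus strand: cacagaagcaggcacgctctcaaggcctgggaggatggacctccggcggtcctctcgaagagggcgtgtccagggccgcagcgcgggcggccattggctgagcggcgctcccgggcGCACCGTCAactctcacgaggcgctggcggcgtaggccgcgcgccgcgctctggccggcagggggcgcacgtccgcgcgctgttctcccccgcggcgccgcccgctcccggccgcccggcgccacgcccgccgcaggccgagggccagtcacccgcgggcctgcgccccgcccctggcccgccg
Gss, chr2:155592761-155593060, minus strand: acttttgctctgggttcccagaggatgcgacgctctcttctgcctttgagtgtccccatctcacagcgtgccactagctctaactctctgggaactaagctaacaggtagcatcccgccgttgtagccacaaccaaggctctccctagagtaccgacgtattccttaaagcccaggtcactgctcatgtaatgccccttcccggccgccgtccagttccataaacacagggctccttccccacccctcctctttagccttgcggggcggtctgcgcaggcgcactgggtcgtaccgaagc
The Slc7a11 window held 2 matches to the amino acid core on opposite strands, TGATGCAA from 66 to 59 bases before the start and TTGCATCA from 47 to 40 bases before it. It held no antioxidant core. Among 32851 windows of the same length, 3.969% held the amino acid core and 23 (0.07001%) held it 2 or more times. The Gclm window held 1 antioxidant core, GCACCGTCA as read on the strand of the gene, from 134 to 126 bases before the start. That core was in 12.39% of all windows. The windows of Cbs and Gpx1 also held neither core, and for Ggt1 the first 3 of its windows held 1 antioxidant core each. A match is a string of letters and was not measured as a bound site.

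Total counts were 67173096 to 72512319 per library. The liver label fitted the marker genes: the 6 hepatocyte markers together reached 61369 to 132753 CPM (counts scaled to TMM-adjusted library size) in every library, and no listed marker of any cell type was at 0 in all libraries. Fbxl5 itself averaged 18.6 ± 5.25 CPM in FBXL5ΔDC livers and 15.8 ± 3.01 CPM in control livers at 6 h, and 17.2 ± 5.99 CPM in FBXL5ΔDC livers and 20.1 ± 2.27 CPM in control livers at 0 h (SD, n = 3 each). These did not differ past the threshold (edgeR adjusted p = 0.672 at 6 h and 1 at 0 h), and whole liver does not check a deletion in a rare cell type. The 6 dendritic cell markers summed to between 4.12 and 7.38 CPM over all 12 libraries. Mitochondrially encoded genes held 8.94% to 9.43% of counts in FBXL5ΔDC livers at 6 h, against 5.32% to 7.05% in the other 9 libraries.

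Control replicate 3 at 6 h stood apart from the other 2 treated control libraries. Its albumin transcript Alb was at 92161 CPM, against 47857 and 55635 CPM in control replicates 1 and 2 at 6 h, and at 80392 to 111567 CPM in the FBXL5ΔDC livers at 6 h. Without that library, 1873 genes were higher and 2376 lower in FBXL5ΔDC than in control livers at 6 h, against 238 and 793 with it. Results that rest on it are given both ways. In whole-tissue RNA, fewer cells of a type and less RNA per cell cannot be told apart.

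Of the 8 tested genes, 4 rose after acetaminophen in FBXL5ΔDC livers (Gclc, Gss, Gsr and Slc7a11) and 5 in control livers (these and Gclm), and no tested member fell in either genotype. In FBXL5ΔDC livers the 4 rises stood beside 15% of all tested genes called higher and 15.1% called lower. In control livers the 5 rises stood beside 6.36% of all tested genes called higher and 4.2% called lower. The median log2 change of the 8 genes was 0.54 in FBXL5ΔDC livers, against 0.02 over all tested genes, and 0.76 in control livers, against 0.03 over all tested genes. The transsulfuration genes Cbs and Cth and the peroxidase gene Gpx1 did not pass the test in either genotype. Markers of other liver cells moved in the same libraries. In FBXL5ΔDC livers 5 of 6 sinusoidal endothelium markers, 4 of 6 cholangiocyte markers, 3 of 6 stellate cell markers and 3 of 6 neutrophil markers were called higher at 6 h, against 0, 1, 0 and 1 in control livers. For hepatocyte, Kupffer cell and monocyte and macrophage markers it was 1 each, against 0, 1 and 1. For dendritic, red blood and T and B cell markers it was 0 each, against 0, 1 and 0. The hepatocyte markers summed to 97709 to 132753 CPM at 6 h and 72712 to 83130 CPM at 0 h in FBXL5ΔDC livers. In control livers they summed to 61369 to 108823 CPM and 68502 to 75710 CPM. The part of the markers in the values of the members was not tested.

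**Figure D1:**
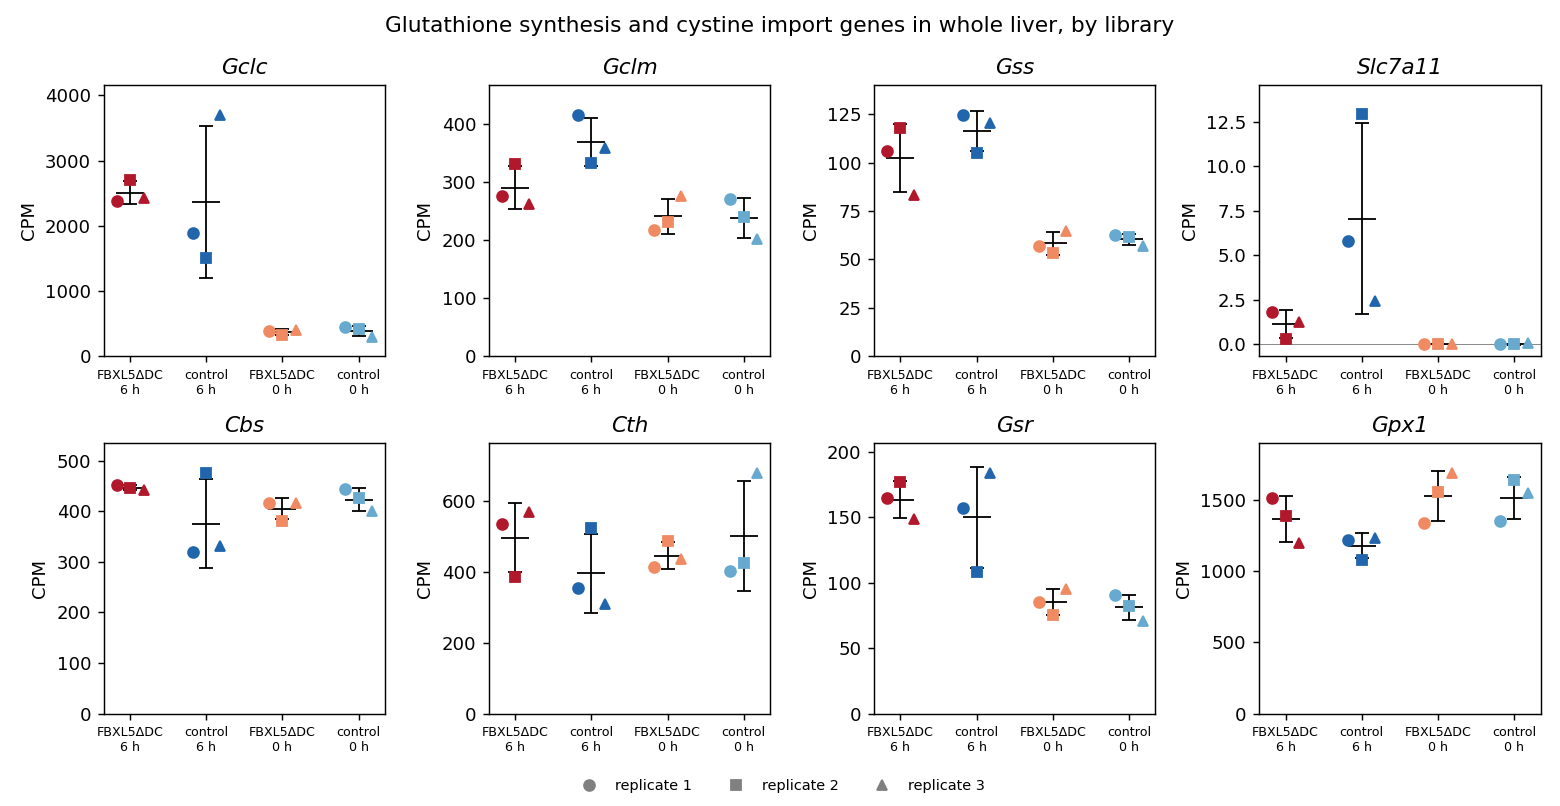
Abundance in CPM (vertical axes, linear, from 0, or from just below 0 for Slc7a11) of the 8 tested genes in the 12 libraries, by group, with the mean and SD as black bars and replicate numbers as marker shapes. The 6 treated libraries lie above the 6 untreated libraries for Gclc, Gss, Gsr and Slc7a11. Slc7a11 lies between 2.41 and 12.9 CPM in treated control livers, above the 0.312 to 1.84 CPM of treated FBXL5ΔDC livers, a difference that was not called (edgeR adjusted p = 0.0696).

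Gclc encodes the catalytic subunit of glutamate-cysteine ligase (GRCm38 chromosome 9, 77754535 to 77794485, plus strand). It was at 2376, 2704 and 2427 CPM in FBXL5ΔDC livers at 6 h, and at 386, 318 and 403 CPM in FBXL5ΔDC livers at 0 h. In control livers it was at 1892, 1498 and 3699 CPM at 6 h, and at 443, 409 and 290 CPM at 0 h. All 6 treated libraries were therefore above all 6 untreated ones, and among treated livers control replicate 3 was the highest and the other 2 control libraries the lowest. The log2 rise was 2.76 ± 0.29 (SE) in FBXL5ΔDC livers (edgeR adjusted p = 9.75e-05) and 2.63 ± 0.29 in control livers (edgeR adjusted p = 2.92e-04). Without control replicate 3 at 6 h the rise in control livers was 2.15.

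Gclm encodes the modifier subunit, which makes the ligase more active at low substrate (chromosome 3, 122245557 to 122270732, plus strand). Its values were 275, 332 and 262 CPM in FBXL5ΔDC livers at 6 h, and 217, 231 and 275 CPM in FBXL5ΔDC livers at 0 h. In control livers they were 415, 333 and 358 CPM at 6 h, and 270, 240 and 202 CPM at 0 h. The treated and untreated libraries overlapped in FBXL5ΔDC livers and were apart in control livers. The log2 change was 0.27 in FBXL5ΔDC livers (edgeR adjusted p = 0.204) and 0.64 ± 0.15 in control livers (edgeR adjusted p = 0.0185). The call in control livers was lost in edgeR when control replicate 1 at 6 h (adjusted p = 0.0537) or control replicate 2 or 3 at 0 h (0.0675 and 0.0836) was left out, and when the 2 groups were fitted alone (0.0815). The exons of Gclm share 296 bases with Gm17494 on the opposite strand and 244 bases with Gm6061 on the same strand, and reads there cannot be assigned with certainty, since the strand setting of the counting is not given in the sources used here.

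The 2 subunits of the ligase thus moved by different amounts within the same livers. Relative to the mean of untreated control livers, log2 Gclm minus log2 Gclc was −2.44, −2.36 and −2.54 in FBXL5ΔDC livers at 6 h and −1.52, −1.50 and −2.70 in control livers at 6 h. It was −0.16, 0.21 and 0.12 in FBXL5ΔDC livers at 0 h and −0.05, −0.10 and 0.15 in control livers at 0 h. Every treated library thus held less Gclm per Gclc transcript than every untreated library, and control replicate 3 was the lowest of all. These are ratios within a library and do not depend on the scaling between libraries.

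Gss, the gene of the second enzyme of synthesis (chromosome 2, 155563181 to 155592810, minus strand), showed a smaller rise in both genotypes than Gclc. It was at 106, 118 and 83.2 CPM in FBXL5ΔDC livers at 6 h, and at 56.9, 53.2 and 64.8 CPM in FBXL5ΔDC livers at 0 h. In control livers it was at 125, 105 and 120 CPM at 6 h, and at 62.4, 61.7 and 57.0 CPM at 0 h. Treated and untreated libraries did not overlap in either genotype. The log2 rise was 0.81 ± 0.14 in FBXL5ΔDC livers (edgeR adjusted p = 0.00117) and 0.95 ± 0.14 in control livers (edgeR adjusted p = 0.00151). Within a library, log2 Gclc minus log2 Gss, relative to the mean of untreated control livers, was 1.85 to 2.23 in FBXL5ΔDC livers and 1.20 to 2.31 in control livers at 6 h, and lay between −0.29 and 0.19 in the 6 untreated livers. Gss shares 395 exonic bases (6.68% of its own) with Acss2, an acetyl-CoA synthetase gene on the opposite strand, and shorter stretches with Gssos1 and Gssos2. Acss2 fell in both genotypes, by 0.82 on the log2 scale in FBXL5ΔDC livers (edgeR adjusted p = 0.00110) and by 0.61 in control livers (edgeR adjusted p = 0.0156).

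**Figure D2:**
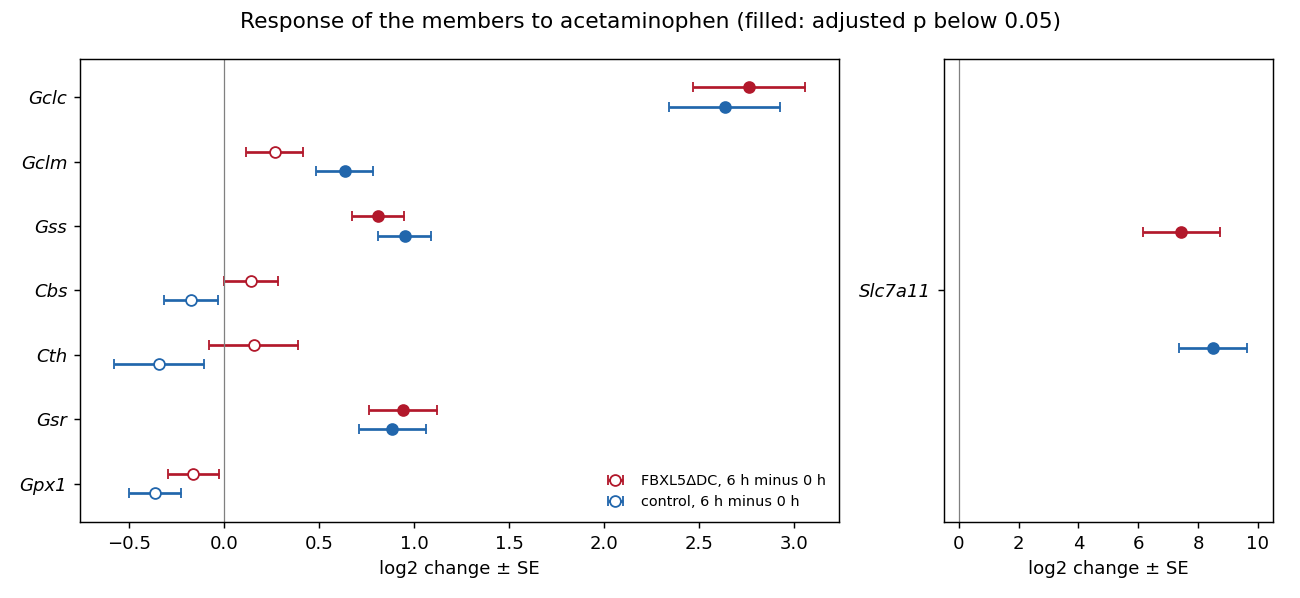
Log2 change at 6 h relative to 0 h with its SE (horizontal axes) in FBXL5ΔDC (red, upper) and control livers (blue, lower) for 7 genes, and on a wider scale for Slc7a11, with filled points for an edgeR adjusted p below 0.05. Gclc, Gss and Gsr are filled in both genotypes and Gclm in control livers. The fitted values of Slc7a11, 7.43 and 8.49, do not give the size of its rise, because the untreated livers held almost no counts.

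Slc7a11 encodes the transport subunit of xCT, which brings in cystine in exchange for glutamate (chromosome 3, 49892526 to 50443614, minus strand). It was near absent from untreated livers and present in all 6 treated ones. The raw counts were 120, 19 and 86 in FBXL5ΔDC livers at 6 h, and 1, 0 and 0 in FBXL5ΔDC livers at 0 h. In control livers the raw counts were 451, 1047 and 160 at 6 h, and 0, 0 and 4 at 0 h. The treated levels were 1.84, 0.312 and 1.28 CPM in FBXL5ΔDC livers and 5.82, 12.9 and 2.41 CPM in control livers. The lowest of these, FBXL5ΔDC replicate 2, was close to the detection floor of 12 counts per library, which is a cautious limit and covers counting error only. The rise passed the test in FBXL5ΔDC livers (edgeR adjusted p = 0.00142) and in control livers (edgeR adjusted p = 0.00107). The mean in treated livers was 6.53 times the floor of the untreated livers in FBXL5ΔDC mice and 43.7 times that floor in control mice, or 25.5 times without control replicate 2 at 6 h. With no more than 4 counts in any untreated library, the size of the rise itself is not known. The 2 amino acid cores printed above lie in the start-site window of this gene.

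Cbs and Cth encode cystathionine beta-synthase and cystathionine gamma-lyase, which together carry sulfur from homocysteine to cysteine (chromosome 17, 31608894 to 31637238, minus strand, and chromosome 3, 157894248 to 157925077, minus strand). Cbs was within 442 to 453 CPM in FBXL5ΔDC livers at 6 h and 381 to 417 CPM in FBXL5ΔDC livers at 0 h, and within 319 to 477 CPM in control livers at 6 h and 400 to 445 CPM in control livers at 0 h. Its log2 change was 0.14 in FBXL5ΔDC livers (edgeR adjusted p = 0.504) and −0.17 in control livers (edgeR adjusted p = 0.522). The 3 treated FBXL5ΔDC libraries lay above the 3 untreated ones, while the control libraries overlapped. Without control replicate 2 at 6 h, the highest of its group at 477 CPM, Cbs was called lower in control livers (log2 change −0.38, edgeR adjusted p = 0.0489). Cth was within 386 to 571 CPM in FBXL5ΔDC livers at 6 h and 414 to 488 CPM in FBXL5ΔDC livers at 0 h, and within 311 to 523 CPM in control livers at 6 h and 402 to 681 CPM in control livers at 0 h. Its groups overlapped in both genotypes, with log2 changes of 0.16 in FBXL5ΔDC livers (edgeR adjusted p = 0.665) and −0.34 in control livers (edgeR adjusted p = 0.418).

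Gsr encodes glutathione reductase, which turns oxidised glutathione back into the reduced form (chromosome 8, 33652523 to 33698163, plus strand). It was at 165, 177 and 148 CPM in FBXL5ΔDC livers at 6 h, and at 85.3, 75.4 and 95.0 CPM in FBXL5ΔDC livers at 0 h. In control livers it was at 158, 108 and 184 CPM at 6 h, and at 90.6, 82.1 and 70.8 CPM at 0 h. Every treated library was above every untreated one, with control replicate 2 the lowest of the treated. The log2 rise was 0.94 ± 0.18 in FBXL5ΔDC livers (edgeR adjusted p = 0.00211) and 0.89 ± 0.18 in control livers (edgeR adjusted p = 0.00886), and the call in control livers was lost when the 2 groups were fitted alone (edgeR adjusted p = 0.0767).

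Gpx1 encodes the main cytosolic glutathione peroxidase, which spends glutathione on hydrogen peroxide (chromosome 9, 108338903 to 108340343, plus strand). It was at 1516, 1388 and 1198 CPM in FBXL5ΔDC livers at 6 h, and at 1340, 1554 and 1693 CPM in FBXL5ΔDC livers at 0 h. In control livers it was at 1223, 1077 and 1234 CPM at 6 h, and at 1356, 1642 and 1547 CPM at 0 h. The treated control libraries were all below the untreated ones, and the FBXL5ΔDC libraries overlapped. Neither log2 change passed the test: −0.16 in FBXL5ΔDC livers (edgeR adjusted p = 0.413) and −0.36 in control livers (95% interval −0.66 to −0.07, edgeR adjusted p = 0.111).

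Ggt1 encodes the gamma-glutamyl transferase that starts the breakdown of glutathione outside cells (chromosome 10, 75561604 to 75586200, plus strand). It had 0 counts in all 3 FBXL5ΔDC livers at 6 h, and 0, 0 and 21 counts in FBXL5ΔDC livers at 0 h. In control livers it had 0, 9 and 0 counts at 6 h, and 0, 0 and 11 counts at 0 h. A single library exceeded the floor of 12 counts, so no level and no change can be given.

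Set on a common scale of CPM per kilobase of exon, the 9 genes spanned a wide range. In untreated control livers the order of the mean levels was Gpx1 (1052 ± 101 CPM per kilobase), Cth (180 ± 55.5), Gclc (101 ± 21.3), Cbs (56.6 ± 2.99), Gclm (37.7 ± 5.41), Gsr (29.5 ± 3.60) and Gss (10.2 ± 0.500, all SD, n = 3). Of these neighbours, only Gclm and Gsr had overlapping libraries. Ggt1 and Slc7a11 were under the floor in all 3 untreated control libraries and are not ranked. After acetaminophen the mean level of Gclc was 664 ± 46.9 CPM per kilobase in FBXL5ΔDC livers and 627 ± 312 in control livers, above Cth and below Gpx1, which was at 949 ± 111 in FBXL5ΔDC livers and 817 ± 60.7 in control livers. In control livers the libraries of Gclc (398 to 982) overlapped those of Gpx1 (747 to 856), and in FBXL5ΔDC livers they did not.

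None of the 8 tested genes differed between FBXL5ΔDC and control livers at 6 h past the threshold (0 higher and 0 lower), where 1.35% of all tested genes were called higher and 4.51% lower in FBXL5ΔDC livers by edgeR. At an unadjusted p below 0.05, 2 of the 8 genes were lower in FBXL5ΔDC livers and 0 higher. Over all tested genes 22.7% had an unadjusted p below 0.05 in either direction, so the 2 do not set the members apart. DESeq2 called 1 of the 8, Slc7a11, lower. The median log2 difference of the 8 genes was 0.10, against −0.01 over all tested genes. Its sign rested on 1 library: without control replicate 2 at 6 h the median of the 8 was −0.11, and without control replicate 1 it was 0.045.

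The 2 genes with an unadjusted p below 0.05 were Slc7a11 and Gclm, and for both the FBXL5ΔDC libraries were all below the control libraries at 6 h. Slc7a11 averaged 1.15 ± 0.775 CPM in FBXL5ΔDC livers and 7.06 ± 5.38 CPM in control livers (SD, n = 3 each), a ratio of means of 0.162. The log2 difference was −2.62 ± 0.78 (95% interval −4.31 to −0.93, edgeR adjusted p = 0.0696). It passed in DESeq2 (−2.59, adjusted p = 0.0137) and in edgeR without control replicate 3 at 6 h (−3.03, adjusted p = 0.00926). The latter fit called 2376 genes lower over all genes. Slc7a11 did not pass in any other alternative. Without control replicate 2 at 6 h, the highest library, the log2 difference was −1.84 (edgeR adjusted p = 0.291) and the ratio of means 0.278. Gclm averaged 290 ± 36.8 CPM in FBXL5ΔDC livers and 369 ± 41.9 CPM in control livers, with a log2 difference of −0.35 (95% interval −0.67 to −0.03, edgeR adjusted p = 0.183).

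For Gclc the 6 h comparison turned on control replicate 3. With all libraries the means were 2502 ± 176 CPM in FBXL5ΔDC livers and 2363 ± 1174 CPM in control livers, a log2 difference of 0.08 (95% interval −0.51 to 0.68, edgeR adjusted p = 0.899). Without it, all 3 FBXL5ΔDC libraries were above the other 2 control libraries, and Gclc was called higher in FBXL5ΔDC livers (log2 difference 0.56, edgeR adjusted p = 0.0413). That fit called 1873 genes higher and 2376 lower over all genes. The same library had the highest Gclc and the lowest Slc7a11 of the treated control livers. Among the 6 treated livers, control replicates 1 and 2 had the highest Slc7a11 (5.82 and 12.9 CPM) and the lowest Gclc (1892 and 1498 CPM).

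**Figure D3:**
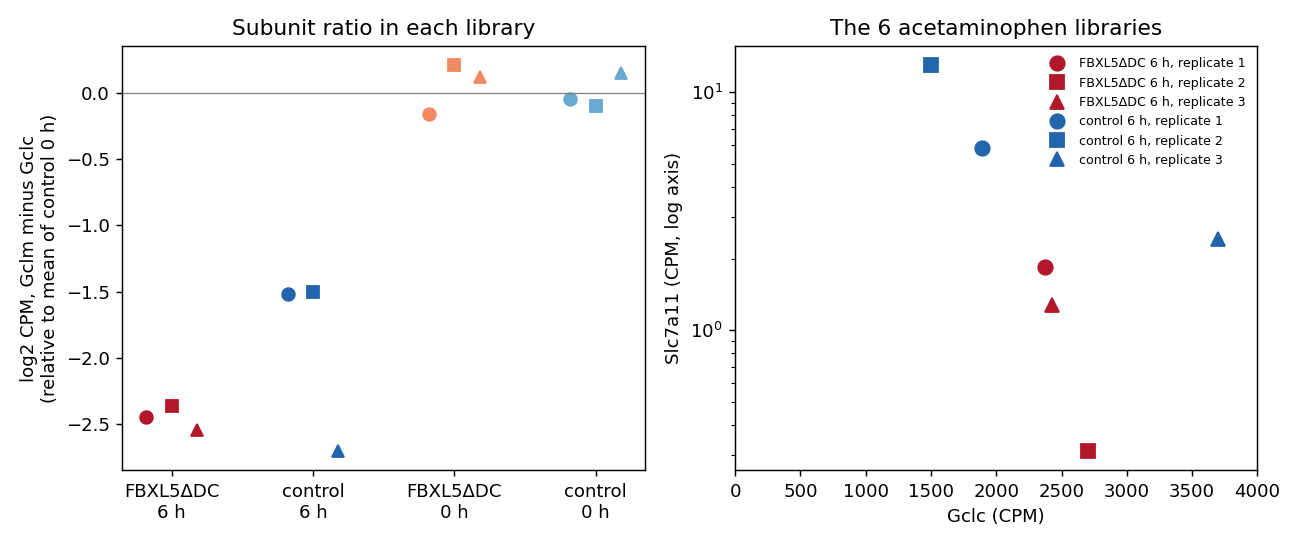
Left, log2 CPM of Gclm minus Gclc in each library relative to the mean of control livers at 0 h, which is −2.70 to −1.50 in the 6 treated livers and −0.16 to 0.21 in the untreated ones. Right, Slc7a11 (CPM, log axis) against Gclc (CPM, linear axis) in the 6 acetaminophen livers, where control replicates 1 and 2 lie at the upper left and control replicate 3 lies at the far right.

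The other 5 tested genes did not pass the test between genotypes at 6 h, and their libraries overlapped. Log2 differences were −0.19 for Gss (edgeR adjusted p = 0.452), 0.25 for Cbs (0.330), 0.33 for Cth (0.448) and 0.22 for Gpx1 (0.380). Gsr averaged 163 ± 14.2 CPM in FBXL5ΔDC livers and 150 ± 38.6 CPM in control livers (log2 difference 0.12, edgeR adjusted p = 0.734). Markers of other cells are set beside these values. Of the 6 stellate cell, 6 neutrophil and 6 cholangiocyte markers, 0 were called between the genotypes at 6 h. The neutrophil and cholangiocyte sums of the genotypes overlapped. The 6 sinusoidal endothelium markers summed to 211 to 259 CPM in FBXL5ΔDC livers and 112 to 173 CPM in control livers at 6 h, with 1 of 6 called higher, against 107 to 137 CPM in FBXL5ΔDC livers and 106 to 129 CPM in control livers at 0 h. The 6 stellate cell markers summed to 201 to 243 CPM in FBXL5ΔDC livers and 110 to 180 CPM in control livers at 6 h, against 59.5 to 110 CPM in FBXL5ΔDC livers and 88.1 to 134 CPM in control livers at 0 h. The 6 neutrophil markers summed to 2.59 to 8.78 CPM in FBXL5ΔDC livers and 2.65 to 3.16 CPM in control livers at 6 h, against 0.730 to 1.87 CPM in FBXL5ΔDC livers and 0.954 to 1.53 CPM in control livers at 0 h. The 6 cholangiocyte markers summed to 68.2 to 263 CPM in FBXL5ΔDC livers and 27.2 to 82.2 CPM in control livers at 6 h, against 20.1 to 25.8 CPM in FBXL5ΔDC livers and 15.01 to 23.5 CPM in control livers at 0 h. As in the responses, their part was not tested.

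Before treatment no member was called between the genotypes, where 0% of all tested genes were called higher and 0% lower by edgeR. None of the 8 genes reached an unadjusted p below 0.05 and DESeq2 called none of them. Over all tested genes 465 had an unadjusted p below 0.05, and DESeq2 called 8 higher and 6 lower. The median log2 difference of the 8 genes at 0 h was −0.05. The rises of the 2 genotypes were also compared directly. No member was called in that interaction, where 0.0341% of all tested genes were called higher and 0.256% lower. No member had an unadjusted p below 0.05, against 14.5% of all tested genes, and DESeq2 called no member. For Gclm, the gene that passed in control livers alone, the difference between the rises was −0.37 on the log2 scale (edgeR adjusted p = 0.452), so the responses of the genotypes were not shown to differ. The difference was 0.13 for Gclc (edgeR adjusted p = 0.921).

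Around the members, 74 further genes of cystine and glutamate transport, methionine and cysteine metabolism, glutathione breakdown, peroxidases, export and transcriptional control were set side by side, and 69 of them were tested. After acetaminophen 16 were called higher and 17 lower in FBXL5ΔDC livers, and 13 higher and 10 lower in control livers, with median log2 changes of −0.0023 and 0.014. Over all tested genes, 15% were called higher and 15.1% lower in FBXL5ΔDC livers, and 6.36% and 4.2% in control livers. These shares also stand beside the counts of the single lists below. At 6 h, 2 of the 69 were higher and 8 lower in FBXL5ΔDC than in control livers, beside 1.35% and 4.51% of all tested genes. Without control replicate 3, 11 of the 69 were higher and 12 lower, in a fit that called 1873 higher and 2376 lower over all genes. With control replicate 1 or 2 left out instead, 0 of the 69 were higher and 4 lower. None differed at 0 h. Of 42 calls on the genes that the naming rule picked, 20 held under every alternative tried, and 22 were lost under 1 or more. Calls lost on leaving out a library are marked with the adjusted p-values that resulted. Losses under the other alternatives are not all listed.

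**Figure D4:**
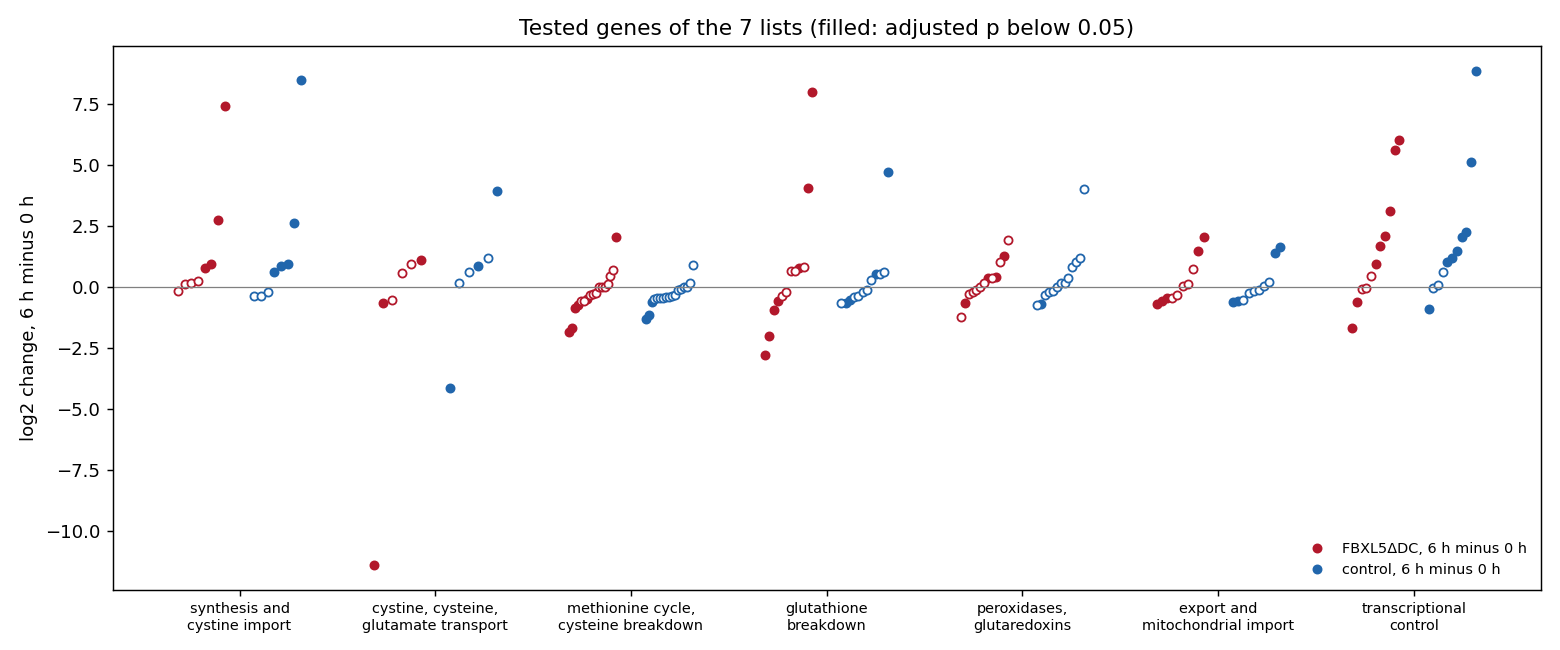
Log2 change at 6 h relative to 0 h (vertical axis) for every tested gene of the 9 members and of 6 further gene lists, sorted within a list, in FBXL5ΔDC (red, left) and control livers (blue, right), with filled points for an edgeR adjusted p below 0.05. The 7.43 and 8.49 of Slc7a11 are the highest points of the first list, and the lowest point of the second, in FBXL5ΔDC livers, is Slc1a2.

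Of 6 tested transport genes, 1 rose and 2 fell in FBXL5ΔDC livers, and 2 rose and 1 fell in control livers. Slc3a2, the heavy chain that pairs with Slc7a11 to form xCT and also pairs with other amino acid carriers, rose in both genotypes. It averaged 82.9 ± 5.33 CPM at 6 h and 38.1 ± 2.28 CPM at 0 h in FBXL5ΔDC livers, and 73.1 ± 20.7 CPM at 6 h and 39.4 ± 3.16 CPM at 0 h in control livers. The log2 rise was 1.12 in FBXL5ΔDC livers (edgeR adjusted p = 5.46e-04) and 0.89 in control livers (edgeR adjusted p = 0.00604, and 0.0739 with the 2 groups fitted alone). Slc1a2, a glutamate transporter found in the hepatocytes around the central vein, fell in both. It was at 0.123, 0 and 0.0596 CPM in FBXL5ΔDC livers at 6 h, which is under the floor, and at 144, 187 and 177 CPM in FBXL5ΔDC livers at 0 h. In control livers Slc1a2 was at 12.3, 11.1 and 1.10 CPM at 6 h, and at 139, 153 and 134 CPM at 0 h. The treated libraries of both genotypes were below all untreated ones, and those of FBXL5ΔDC mice were below those of control mice. Measured against the floor, Slc1a2 was at least 908-fold lower at 6 h than at 0 h in FBXL5ΔDC livers (edgeR adjusted p = 1.31e-04), and its log2 change in control livers was −4.12 (edgeR adjusted p = 0.00730). At 6 h Slc1a2 was lower in FBXL5ΔDC than in control livers (edgeR adjusted p = 0.00759, and 0.105 with the 2 groups fitted alone). The mean of control livers at 6 h, 8.15 CPM, was 43.7 times the floor. Control replicate 3, at 1.10 CPM, was much nearer the floor, so that multiple does not hold for every library. Without control replicate 3 the call was kept (edgeR adjusted p = 1.24e-07), in a fit that called 2376 genes lower over all genes.

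Slc1a4, a carrier of small neutral amino acids, cysteine among them, rose in control livers (21.6 ± 16.4 CPM at 6 h and 1.41 ± 0.326 CPM at 0 h, edgeR adjusted p = 0.0135). That call was lost when any of the 3 untreated control libraries was left out (edgeR adjusted p = 0.0587 to 0.0629). As with Slc7a11, control replicates 1 and 2 at 6 h were the highest, at 31.5 and 30.5 CPM, and control replicate 3 was at 2.65 CPM. Slc38a2, a glutamine and neutral amino acid carrier, fell in FBXL5ΔDC livers by 0.63 on the log2 scale (edgeR adjusted p = 0.0303), a call lost without FBXL5ΔDC replicate 1 or 2 at 6 h or replicate 2 or 3 at 0 h (edgeR adjusted p = 0.0892 to 0.114).

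Of 17 tested genes of the methionine cycle and cysteine breakdown, 1 rose and 5 fell in FBXL5ΔDC livers, and 0 rose and 3 fell in control livers. Mat2a, a methionine adenosyltransferase whose counterpart Mat1a is the main form of adult liver, rose in FBXL5ΔDC livers (268 ± 44.1 CPM at 6 h and 64.3 ± 7.33 CPM at 0 h, edgeR adjusted p = 0.00224). In control livers Mat2a was at 72.7, 77.5 and 230 CPM at 6 h, with replicate 3 the highest. Csad, an enzyme of taurine synthesis from cysteine, fell by 1.68 on the log2 scale in FBXL5ΔDC livers (edgeR adjusted p = 0.00274) and by 1.14 in control livers (edgeR adjusted p = 0.0440). Cdo1, the dioxygenase that begins cysteine breakdown, fell in control livers by 0.60 (edgeR adjusted p = 0.0399). Each of these 2 calls in control livers was lost when any of 9 of the 12 libraries was left out, with edgeR adjusted p-values of 0.0534 to 0.163 for Csad and 0.0549 to 0.125 for Cdo1.

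Of 12 tested genes of glutathione breakdown, 3 rose and 4 fell in FBXL5ΔDC livers, and 2 rose and 2 fell in control livers. Chac1, a cytosolic enzyme that cleaves glutathione and a known ATF4 target, rose in both. It was at 10.1, 11.6 and 3.11 CPM in FBXL5ΔDC livers at 6 h and averaged 0.491 ± 0.153 CPM in FBXL5ΔDC livers at 0 h. In control livers it was at 25.0, 14.8 and 29.8 CPM at 6 h and averaged 0.879 ± 0.205 CPM at 0 h. The treated control libraries were all above the treated FBXL5ΔDC libraries, and that difference was not called. The log2 rise was 4.07 in FBXL5ΔDC livers (edgeR adjusted p = 1.82e-04) and 4.72 in control livers (edgeR adjusted p = 2.21e-04). Its relative Chac2 fell in FBXL5ΔDC livers, to 2.36 ± 0.779 CPM at 6 h, against 15.9 ± 3.60 CPM at 0 h (edgeR adjusted p = 0.00227). Ggt7, a relative of Ggt1, was called higher in FBXL5ΔDC livers (edgeR adjusted p = 0.00518) but had only 15, 7 and 67 counts at 6 h, against 0 counts in all 3 untreated FBXL5ΔDC livers. Untreated control livers were not all at 0 and averaged 0.152 CPM. Of the FBXL5ΔDC livers at 6 h, replicate 2 was under the floor and replicate 1 just above it, and no fold is given.

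Oplah, which returns 5-oxoproline to glutamate, was higher in FBXL5ΔDC than in control livers at 6 h. It averaged 217 ± 12.8 CPM in FBXL5ΔDC livers and 157 ± 5.56 CPM in control livers (log2 difference 0.46, edgeR adjusted p = 0.0226). That call was lost without replicate 1 or 2 of either treated group (edgeR adjusted p = 0.0642 to 0.0834), and with the 2 groups fitted alone (0.189). In control livers Oplah fell at 6 h by 0.62 on the log2 scale (edgeR adjusted p = 0.00297). Cndp2, a peptidase that splits cysteinylglycine, was called higher in control livers by 0.54 (edgeR adjusted p = 0.0469), a call lost when any of 10 of the 12 libraries was left out (edgeR adjusted p = 0.0603 to 0.169).

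Of 13 tested peroxidase, glutaredoxin and glyoxalase genes, 3 rose and 1 fell in FBXL5ΔDC livers, and 0 rose and 1 fell in control livers. Glo1, which uses glutathione to clear methylglyoxal, fell in both, to 245 ± 35.1 CPM at 6 h against 380 ± 55.1 CPM at 0 h in FBXL5ΔDC livers (edgeR adjusted p = 0.0113), and to 243 ± 7.81 CPM at 6 h against 392 ± 78.0 CPM at 0 h in control livers (edgeR adjusted p = 0.0200). Its call was lost without FBXL5ΔDC replicate 3 at 0 h in FBXL5ΔDC livers (edgeR adjusted p = 0.0572), and without control replicate 1 or 2 at 0 h in control livers (edgeR adjusted p = 0.0852 and 0.0742). Gpx3, a secreted peroxidase, and Esd, which frees glutathione from S-formylglutathione, rose in FBXL5ΔDC livers by 1.27 and 0.41 on the log2 scale (edgeR adjusted p = 0.0434 and 0.0373). The call on Gpx3 was lost when any of 5 of the 12 libraries was left out (edgeR adjusted p = 0.0567 to 0.191), and that on Esd when any of 8 was (edgeR adjusted p = 0.0524 to 0.140).

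Of 10 tested genes of export and mitochondrial import, 2 rose and 3 fell in FBXL5ΔDC livers, and 2 rose and 2 fell in control livers. Abcc1 and Abcc4, pumps of the MRP family that carry glutathione conjugates and other anions out of cells, were the 2 that rose in both. Abcc1 averaged 3.12 ± 1.22 CPM at 6 h and 0.747 ± 0.301 CPM at 0 h in FBXL5ΔDC livers (log2 rise 2.06, edgeR adjusted p = 0.00349), and its log2 rise was 1.63 in control livers (edgeR adjusted p = 0.0285). Abcc4 rose by 1.49 on the log2 scale in FBXL5ΔDC livers (edgeR adjusted p = 0.0137) and by 1.43 in control livers (edgeR adjusted p = 0.0390). Abcc3, another pump of the family, fell by 0.70 in FBXL5ΔDC livers (edgeR adjusted p = 0.00242) and by 0.62 in control livers (edgeR adjusted p = 0.0133). In FBXL5ΔDC livers the call on Abcc4 was lost without FBXL5ΔDC replicate 1 or 2 at 0 h (edgeR adjusted p = 0.0586 and 0.0577). In control livers the call on Abcc1 was lost without control replicate 1 at 6 h or 1 or 3 at 0 h (edgeR adjusted p = 0.0655 to 0.110), that on Abcc3 without control replicate 2 at 0 h (0.0621), and that on Abcc4 without any of 9 of the 12 libraries (0.0517 to 0.139). Slc25a10, the mitochondrial dicarboxylate carrier, was higher in FBXL5ΔDC livers (269 ± 32.7 CPM) than in control livers (185 ± 16.4 CPM) at 6 h (edgeR adjusted p = 0.0257), a call lost without replicate 1 or 2 of either treated group (edgeR adjusted p = 0.0529 to 0.0906). The call on Slc25a10 was also lost with the replicate block and with the 2 groups fitted alone (edgeR adjusted p up to 0.189).

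Of 11 transcriptional regulators of glutathione genes, all tested, 6 rose and 2 fell in FBXL5ΔDC livers, and 7 rose and 1 fell in control livers. Atf3, Maff and Mafk had the largest rises whose libraries did not overlap. Atf3, a stress-induced factor of the ATF4 arm, was at 57.8, 123 and 19.3 CPM in FBXL5ΔDC livers and at 671, 583 and 416 CPM in control livers at 6 h, and averaged 1.03 ± 0.654 CPM in FBXL5ΔDC livers and 1.18 ± 0.658 CPM in control livers at 0 h. Its rise passed in both genotypes (edgeR adjusted p = 7.58e-04 in FBXL5ΔDC livers and 6.16e-04 in control livers), and at 6 h it was lower in FBXL5ΔDC livers (log2 difference −3.06, edgeR adjusted p = 0.0353). The 6 h call on Atf3 was lost when any of 8 of the 12 libraries was left out (edgeR adjusted p = 0.0505 to 0.120), and was kept without control replicate 3. It was also lost with no low-count filter, with the replicate block and with the 2 groups fitted alone (edgeR adjusted p up to 0.122). Maff and Mafk, small Maf partners of NRF2 and of its competitor BACH1, rose by 5.64 and 3.13 on the log2 scale in FBXL5ΔDC livers (edgeR adjusted p = 0.00126 and 4.21e-04) and by 5.12 and 2.26 in control livers (edgeR adjusted p = 0.00558 and 0.00598). Without control replicate 3 at 6 h the rises in control livers were 4.35 for Maff and 1.63 for Mafk. Without FBXL5ΔDC replicate 2 at 6 h, the highest of its group for both genes, the rises in FBXL5ΔDC livers were 5.23 for Atf3 and 4.90 for Maff, and the 6 h difference of Atf3 was −3.83.

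At 6 h, 4 of the 11 regulators were lower and 0 higher in FBXL5ΔDC than in control livers, and 4 were lower and 3 higher without control replicate 3. The fit without that library called 2376 genes lower and 1873 higher over all genes, against 793 and 238 with it. Trib3, a pseudokinase induced by ATF4, averaged 7.19 ± 2.07 CPM in FBXL5ΔDC livers and 20.3 ± 3.19 CPM in control livers (log2 difference −1.50, edgeR adjusted p = 0.00573). Nfe2l1, a relative of NRF2, averaged 41.6 ± 3.37 CPM in FBXL5ΔDC livers and 74.1 ± 13.3 CPM in control livers (log2 difference −0.83, edgeR adjusted p = 0.00775). Both calls were kept with any library left out and lost with the 2 groups fitted alone (edgeR adjusted p = 0.105 and 0.122). Nfe2l2, the gene of NRF2 itself, was not called in either response, with log2 changes of 0.47 in FBXL5ΔDC livers (edgeR adjusted p = 0.0884) and 0.63 in control livers (edgeR adjusted p = 0.0571). It is named here outside the naming rule, after its values were seen.

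Across all 12 libraries, the genes whose pattern was most like that of each member were found by Pearson's r of log2 CPM over 12284 genes with a mean of at least 1 CPM. These libraries fall into treated and untreated groups, so r mostly follows that split and is given as a description. For Gclc they were the thioredoxin reductase gene Txnrd1 and the tubulin genes Tubb2a and Tuba1a (r = 0.99 each). For Gclm they were Tuba4a (0.96), Ugdh (0.95) and Akr1c19 (0.94), and for Gss they were Chac1, Eif2s2 and Pip4p2 (0.98 each). Gsr was nearest to Prpf19 (0.98), Txnrd1 (0.97) and Tfe3 (0.97), and Slc7a11 was close to Atic (0.97) and Pus7 (0.97). The genes that did not pass in either response had lower values, at most 0.90 for Cth (Entpd4b, then Vim and Disp1), 0.85 for Cbs (Gm48840, then Arhgap4 and Ano10) and 0.93 for Gpx1 (Aifm1, then Msra and Ndufv3). Among the members, r was 0.97 between Gclc and Gsr, 0.94 between Gclc and Gss, 0.84 between Gclc and Slc7a11 and 0.76 between Gclc and Gclm.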

How the data were processed

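Whole-liver RNA-seq was given as 1 table of estimated counts per gene for 12 libraries, deposited without normalisation. The submitters' processing notes name Trim Galore 0.6.6 for trimming, HISAT2 2.2.1 for alignment and the mouse build mm10. The counting program, its strand setting and its annotation are not given in the sources used here. Whole numbers filled the table, but 26.5% to 28.5% of those from 1 to 40 in each library were multiples of 4, more than an even spread gives, so the fragments behind a count are unknown. The design had taken them as raw counts. The test was kept, since no rounding was needed.

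Genes were filtered with filterByExpr and scaled by TMM (factors 0.855 to 1.14). An edgeR 4.0.16 quasi-likelihood model (R 4.3.3, robust dispersions, 1 coefficient for each of 4 groups, 8 residual degrees of freedom) gave 5 contrasts: 6 h minus 0 h in each genotype, FBXL5ΔDC minus control at either time, and the interaction (response in FBXL5ΔDC minus that in control livers). P-values were adjusted by Benjamini-Hochberg over all 17585 tested genes of a contrast, with a threshold of 0.05. The common dispersion was 0.153. SEs are the log2 change divided by the root of F. CPM are mean ± SD with n = 3, and a prior count of 2 went into log2 CPM. The floor was 12 counts per library (0.148 to 0.197 CPM), 3 fragments if each gave 4 counts. The script was tested on simulated data with a lower dispersion than these data. Only genes with a mean above 1 CPM were changed there, so genes near 0 in a group were not covered. Alternatives were DESeq2 1.42.0, upper quartile scaling, no low-count filter, dispersions that were not robust, a replicate block, the 2 groups alone, and leaving out each library.

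Identifiers matched GENCODE vM21 (GRCm38) for 98.1% of genes. No library was a copy of another, and the labels name no batch. From each further list, up to 3 called genes with non-overlapping libraries and the largest change were named per response and for the genotypes at 6 h, with any called at 0 h or in the interaction. The members, lists and naming rule were chosen with earlier results of these data known. Some of the genes that the rule picked are not reported here.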

Additional observations from a re-analysis of the deposited data

Results flagged for a closer look

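Slc1a2, a glutamate transporter of the hepatocytes around the central vein, was the 1 gene among the members and the listed genes whose responses differed between the genotypes in edgeR with all libraries. Without control replicate 3 at 6 h, 6 listed genes were called higher and 9 lower in that comparison, and 1103 and 1430 over all genes. The difference between its responses, FBXL5ΔDC minus control, was −7.26 on the log2 scale (edgeR adjusted p = 0.0493), and in both genotypes the 3 treated libraries were below the 3 untreated ones. The FBXL5ΔDC libraries at 6 h were under the detection floor, so the fitted value is no bound. The call was lost under upper quartile scaling (−7.23, adjusted p = 0.0612), with no low-count filter (−7.27, 0.0887), with the replicate block (−7.12, 0.0951), and when any library except control replicate 3 at 6 h was left out (−8.21 to −6.69 over the 12 fits, adjusted p up to 0.160). Without control replicate 3 it was −7.77 (adjusted p = 1.26e-06).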

How the results depend on the processing

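Direction and side of the threshold held for Gclc, Gss and Slc7a11 in both responses, and for Gsr in FBXL5ΔDC livers, under every alternative. With the 2 groups fitted alone, members called higher in control livers came to 3 (Gclm and Gsr lost), and all-gene counts to 235 higher and 167 lower there, 0 and 6 for the genotypes at 6 h, and 3 higher at 0 h. DESeq2 called 1 member lower at 6 h, and over all genes 1687 higher and 1196 lower in control livers, 730 and 1390 for the genotypes at 6 h, 8 and 6 at 0 h, and 213 and 476 in the interaction. The interaction gave 2 and 18 under upper quartile scaling. The cause was not tested. With group means taken off, same-numbered libraries of the compared groups correlated between −0.061 and 0.029 over the tested genes. These values show no pairing by number over the genes as a whole, and cannot exclude one that touches few genes. With the replicate block the interaction gave 24 lower, against 45 without it, no call on a member changed, and 10 of the 42 calls on further genes picked by the naming rule were lost.

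With 1 library left out, all-gene counts ran from 449 to 1361 higher and 314 to 843 lower in control livers, 1849 to 3117 and 1960 to 3188 in FBXL5ΔDC livers, 35 to 1873 and 215 to 2376 for the genotypes at 6 h, and 0 to 1103 and 1 to 1430 in the interaction. The largest genotype and interaction counts were without control replicate 3 at 6 h. Members called ran from 4 to 5 higher and 0 to 1 lower in control livers, 0 to 1 in each direction for the genotypes at 6 h, and stayed at 4 higher in FBXL5ΔDC livers. Signs turned only for results that were not called. At 0 h these ranged from −0.31 to 0.11 for Cth, −0.21 to 0.078 for Gclc, −0.084 to 0.12 for Gclm, −0.066 to 0.10 for Gpx1, −0.017 to 0.16 for Gsr, −0.13 to 0.012 for Gss and −3.48 to 1.90 for Slc7a11. At 6 h they ranged from −0.16 to 0.56 for Gclc and −0.065 to 0.30 for Gsr. In the interaction they ranged from −0.11 to 0.61 for Gclc, −0.14 to 0.23 for Gsr and −4.52 to 0.86 for Slc7a11. With 3 libraries a group, depth does not limit the abundant members, but counts limit Slc7a11 in untreated livers and Ggt1 throughout.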
